A study of Mus musculus with 41 samples.

Results

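The regions described here are stretches of mouse chromatin that were open and bound by PU.1 in microglia taken straight from the brain, and that were not in the list of open regions after 7 d in culture. They are the 201-bp peaks of the ex vivo ATAC-seq list that overlapped a peak of the ex vivo PU.1 ChIP-seq list by at least 1 bp and overlapped no peak of the 7 d ATAC-seq list. There were 8064 of them among 90674 ex vivo ATAC peaks, and they made up 16.9% of the ex vivo ATAC peaks that carried PU.1. The regions were thus chosen by the presence of called ATAC peaks ex vivo and at 7 d and of PU.1 peaks ex vivo, and these are not results. The other ex vivo ATAC peaks were 39554 shared with 7 d and bound by PU.1, 14572 found ex vivo only without PU.1, and 28484 shared without PU.1.

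The study set C57Bl6 mouse microglia, sorted from perfused whole brain as live CD11b+CD45Low single cells, against the same kind of cell kept in a dish. Ex vivo microglia had no time in culture and no added ligand. Cultured microglia were plated in serum-containing medium with IL34 supplied daily, the cytokine that keeps microglia alive through the CSF1 receptor, and were harvested after 6 h, 22 to 24 h or 7 d. A further 7 d group received TGFβ together with IL34, and whole brain lysate served as the tissue reference. RNA was measured in 5 ex vivo, 2 6 h, 3 24 h, 5 7 d, 2 TGFβ and 4 lysate libraries. Each chromatin list came from 2 libraries pooled by the authors, and 1 of the 2 cultured ATAC libraries was labelled 8 d. PU.1 and H3K4me2 were profiled ex vivo only, ATAC and H3K27ac ex vivo and at 7 d. The labels used here state neither age nor sex of the mice, nor whether replicates came from separate mice, so the p-values measure the spread between these libraries, which may be technical.

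PU.1, encoded by Spi1, is the ETS-family factor that binds purine-rich sites around a GGAA core and opens macrophage and microglial enhancers together with other factors. ATAC-seq reads open chromatin by transposase insertion. H3K4me2 marks promoters and enhancers in general, and H3K27ac marks those in active use. Microglia hold their tissue-specific genes active in the brain through signals such as TGFβ and CSF1 receptor ligands, and lose much of that expression in a dish.

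The sorted libraries carried the microglial identity on their labels. The summed level of 7 microglial markers was 40300 to 47900 CPM (counts scaled to a library of 1000000) ex vivo and 282 to 370 CPM in lysate. It was 7050 to 10700 CPM at 7 d and 15800 to 17600 CPM with TGFβ. The summed neuronal markers reached at most 15.1 CPM ex vivo against at least 13900 CPM in lysate. Summed oligodendrocyte markers were at 38.6 to 153 CPM ex vivo and 3910 to 6420 CPM in lysate. Summed astrocyte markers were at 3.04 to 137 CPM ex vivo and 3660 to 5400 CPM in lysate. Summed neutrophil markers ranged from 0.975 to 115 CPM and border macrophage markers from 7.27 to 98.9 CPM over the ex vivo libraries. In bulk RNA, fewer cells of a type and less RNA per cell cannot be told apart.

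The sequences below show what such a region looks like where it reaches a promoter. RefSeq promoter windows (GRCm38.p6, the mm10 assembly; 250 bases before to 50 after each start) were overlapped by 310 of the 8064 regions in 360 windows. In 110 regions the centre of the PU.1 peak lay before the start, and in 29 of these the stretch before the start also lay outside every gene body. Of the genes at these 29, the 6 that reached 20 CPM, passed the test at 7 d and had no overlap between ex vivo and 7 d libraries are shown, a choice made after sequences and values had been seen and narrowed from an earlier one by values alone. Each line gives the part of the region within the 250 bases before the start, on the strand of the gene. GGAA and its reverse complement TTCC are in capitals. The Ube2a and Itgb1 regions begin farther from the start, at 36873877 and 128685381, and those outer bases are not printed. The stretches are chr4:128618620-128618744 (minus strand) for Tlr12, chr3:108186120-108186288 (plus strand) for Amigo1, chrX:36874045-36874077 (plus strand) for Ube2a, chr8:128685404-128685581 (plus strand) for Itgb1, chr17:5440261-5440297 (minus strand) for Tmem242 and chr11:3914665-3914802 (minus strand) for Slc35e4.
Tlr12: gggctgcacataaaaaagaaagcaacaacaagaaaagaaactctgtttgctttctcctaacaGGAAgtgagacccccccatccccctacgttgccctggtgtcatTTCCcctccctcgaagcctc
Amigo1: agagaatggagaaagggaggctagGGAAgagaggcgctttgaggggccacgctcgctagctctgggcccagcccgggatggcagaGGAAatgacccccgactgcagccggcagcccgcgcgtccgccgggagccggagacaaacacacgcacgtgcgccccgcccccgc
Ube2a: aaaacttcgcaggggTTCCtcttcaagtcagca
Itgb1: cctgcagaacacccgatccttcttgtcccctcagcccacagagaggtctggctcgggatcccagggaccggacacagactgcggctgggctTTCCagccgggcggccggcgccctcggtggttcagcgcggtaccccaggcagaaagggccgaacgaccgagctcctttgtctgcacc
Tmem242: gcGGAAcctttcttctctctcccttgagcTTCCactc
Slc35e4: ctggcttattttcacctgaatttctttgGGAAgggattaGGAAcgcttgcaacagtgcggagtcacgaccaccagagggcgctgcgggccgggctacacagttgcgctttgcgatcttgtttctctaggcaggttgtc

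In the Tlr12 promoter, the GGAA nearest to the centre of the PU.1 peak lay 5 bp from it. The distance was 26 bp in Amigo1, 4 bp in Ube2a, 40 bp in Itgb1, 7 bp in Tmem242 and 0 bp in Slc35e4. The Tlr12 region lay in an ex vivo H3K27ac peak, in an H3K4me2 peak and in no 7 d H3K27ac peak, and the nearest 7 d ATAC peak was 2374 bp away. The Itgb1 region was at the other end of the range, with a 7 d ATAC peak 7 bp away and H3K27ac in both lists. The regions of Amigo1, Ube2a, Tmem242 and Slc35e4 lay 175, 81, 172 and 164 bp from a 7 d ATAC peak.

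The short core is present in nearly every promoter and does not set these windows apart. GGAA on either strand was found in 98.6% of the 360 windows that a region reached and in 96.0% of all 32817 windows. The longer PU.1 form GAGGAAGT, which contains the core, was found on either strand in 24 of the 360 windows (6.67%), in 5.91% of 6581 windows with a shared PU.1-bound peak, in 1.49% of 669 windows with an ex vivo-only peak lacking PU.1, and in 3.20% of all windows. Among the other motifs searched on both strands, the AP-1 form TGANTCA was in 5.83% of the 360 windows, 4.56% of windows with a shared PU.1-bound peak and 7.81% of all. The SMAD form CAGACA was in 16.1%, 15.7% and 21.0% in the same order, the IRF form (GAAA, any 2 bases, GAAA) in 2.50%, 3.46% and 3.43%, and the MEF2 frame (CTA, any 4 bases, TAG) in 1.94%, 3.05% and 3.69%. The C/EBP form ATTGCGCAA was in 0 of the 360 windows, 0.122% of the shared and 0.0488% of all. The windows with a region had a median GC content of 58.3%, against 60.3% with a shared PU.1-bound peak and 52.7% over all windows. Motif matches describe letters and not binding.

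Most of the regions lay away from gene starts. Of the 7833 on chromosomes for which the table holds starts, 13.1% lay within 1 kb of a start, 52.3% inside a gene body farther away and 34.6% between genes. The shared PU.1-bound peaks were nearer to starts, with 20.2% within 1 kb, although the median distance was 14.3 kb in both classes. The PU.1 peak sat on the region in the same way in both. The median distance between the centres of the ATAC and PU.1 peaks was 26 bp in the regions and 27 bp in the shared peaks, and 76.9% and 75.1% were within 50 bp. On the autosomes the regions made up between 14.1% and 20.5% of the PU.1-bound ATAC peaks, with chromosome 18 lowest and chromosome 19 highest, and the X chromosome had 14.7%.

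The histone marks, which the choice of regions did not use, placed the regions between the shared PU.1-bound peaks and the peaks without PU.1. Of the 8064 regions, 3249 (40.3%, 95% Wilson interval 39.2 to 41.4, counting error only) lay in an ex vivo H3K27ac peak. The share was 54.9% in the shared PU.1-bound peaks, 24.1% in ex vivo-only peaks without PU.1 and 30.9% in shared peaks without PU.1. H3K4me2 covered 47.1% of the regions (46.0 to 48.2) against 59.0%, 37.6% and 46.2% in the same order. None of the mark lists reached 3302 regions (40.9%), which were open and PU.1-bound ex vivo without a called mark.

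Regions in an ex vivo H3K27ac peak lay outside the 7 d H3K27ac peaks more often than the other classes did. This counts the 201-bp regions and not whole H3K27ac peaks. Of the 3249 regions in an ex vivo H3K27ac peak, 1564 (48.1%, 46.4 to 49.9) lay in no 7 d H3K27ac peak. In the shared PU.1-bound peaks this share was 28.3% (27.7 to 28.9), in ex vivo-only peaks without PU.1 39.8% (38.2 to 41.4) and in shared peaks without PU.1 23.5%. The remaining 1685 regions lay in H3K27ac peaks of both lists, and 239 (2.96%) lay in a 7 d H3K27ac peak only. The chromatin lists hold no replicates, so these shares carry no test over samples. The pooled libraries also differed in depth, with 23.8 M ATAC tags ex vivo and 15.2 M at 7 d, and 45.6 and 27.6 M H3K27ac tags. The 7 d ATAC list held 112977 peaks with 37.1% of its tags in them, against 25.9% ex vivo. The 7 d H3K27ac list held 31349 peaks covering 50.9 Mb with 32.1% of its tags, and the ex vivo list 24520 peaks covering 61.3 Mb with 64.0%. The part of depth and of the share of tags in peaks in these values was not tested.

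**Figure D1:**
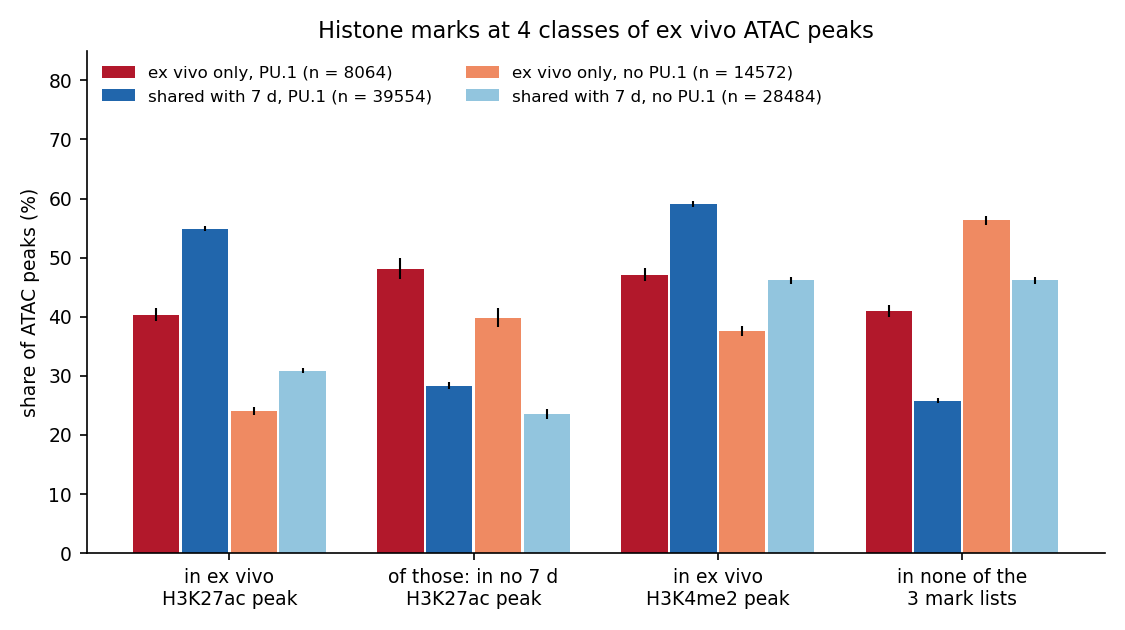
Share of ATAC peaks (%) in an ex vivo H3K27ac peak, of those in no 7 d H3K27ac peak, in an ex vivo H3K4me2 peak, and in none of the 3 mark lists, for the 4 classes of ex vivo ATAC peaks; bars are shares and lines 95% Wilson intervals. The PU.1-bound regions found ex vivo only have the highest bar for H3K27ac missing at 7 d, 48.1%, and a lower bar than the shared PU.1-bound peaks for H3K27ac ex vivo, 40.3% against 54.9%.

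The regions were concentrated among the later entries of the ex vivo ATAC list. HOMER, the peak caller named in the headers, normally writes peaks from the strongest down, but the files carry no score, so place in the list is used only as deposited. The median place was 59040 for the regions and 28656 for the shared PU.1-bound peaks, and 69.5% and 29.7% lay below the midpoint. The regions were 1.79% of the PU.1-bound peaks in the first decile of the list and 45.3% in the last. Within deciles, the order of the shares in ex vivo H3K27ac was not that of the whole list, where the regions had 40.3% and the shared PU.1-bound peaks 54.9%. The regions had the higher share in each of the first 6 deciles, with 94.6% against 87.0% in the first, 83.8% against 70.5% in the second, 71.7% against 58.7% in the third, 61.8% against 50.8% in the fourth, 54.9% against 44.7% in the fifth and 43.3% against 38.4% in the sixth. In the last 4 deciles the shares were 31.6% against 32.5%, 30.4% against 29.2%, 24.1% against 22.7% and 17.4% against 20.1%. The share of H3K27ac missing at 7 d was larger in the regions in each of the 10 deciles. In the first decile, which held only 129 regions, the gap was small, at 20.5% against 19.4%. The shares were 52.6% against 37.7% in the sixth and 66.2% against 45.3% in the last.

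**Figure D2:**
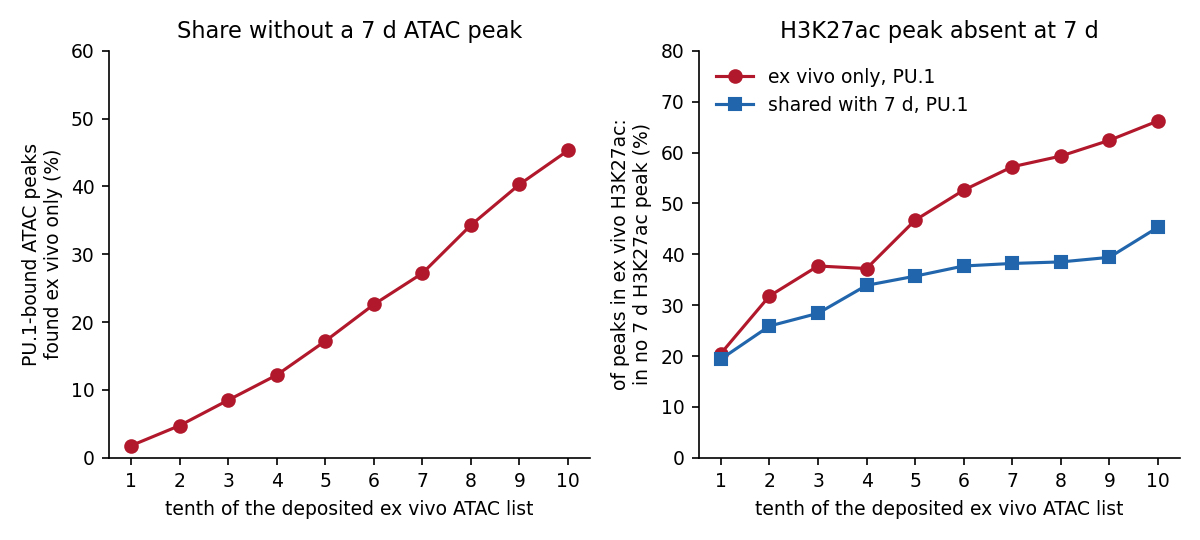
Left, the share of PU.1-bound ex vivo ATAC peaks without a 7 d ATAC peak (%) by decile of the deposited ATAC list; right, of peaks in ex vivo H3K27ac, the share in no 7 d H3K27ac peak (%), for the ex vivo-only and the shared PU.1-bound peaks. The left line climbs from 1.79% to 45.3%, and on the right the ex vivo-only points lie above the shared points in every decile, by the least in the first.

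PU.1 peak place moved with membership as well. In the first quartile of the PU.1 list, 10.2% of the PU.1-bound ATAC peaks were regions of the set, and in the last quartile 26.6%. Regions whose PU.1 peak stood in the first quartile lay in ex vivo H3K27ac in 73.5% of cases, and those in the last quartile in 8.75%. The share of acetylated regions without 7 d H3K27ac was 43.5%, 51.4%, 49.8% and 56.7% over the 4 quartiles, against 26.9%, 29.2%, 31.3% and 33.4% in the shared peaks.

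The marks at the regions differed with the distance to the nearest 7 d ATAC peak. The median gap was 1810 bp, and 3 regions had no 7 d peak on their chromosome or scaffold. The 354 regions within 50 bp of a 7 d peak, just outside the rule, lay in ex vivo H3K27ac in 64.1% of cases, and of those 22.0% had no 7 d H3K27ac. The 403 PU.1-bound peaks that a 7 d peak overlapped by only 1 to 50 bp, on the other side of the rule, had nearly the same values, 61.5% and 22.2%. At 5 to 20 kb from the nearest 7 d peak, 1914 regions lay in ex vivo H3K27ac in 14.6% of cases, and of those 89.2% had no 7 d H3K27ac. H3K4me2 covered 73.2% of the regions within 50 bp and 27.5% of those at 5 to 20 kb.

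**Figure D3:**
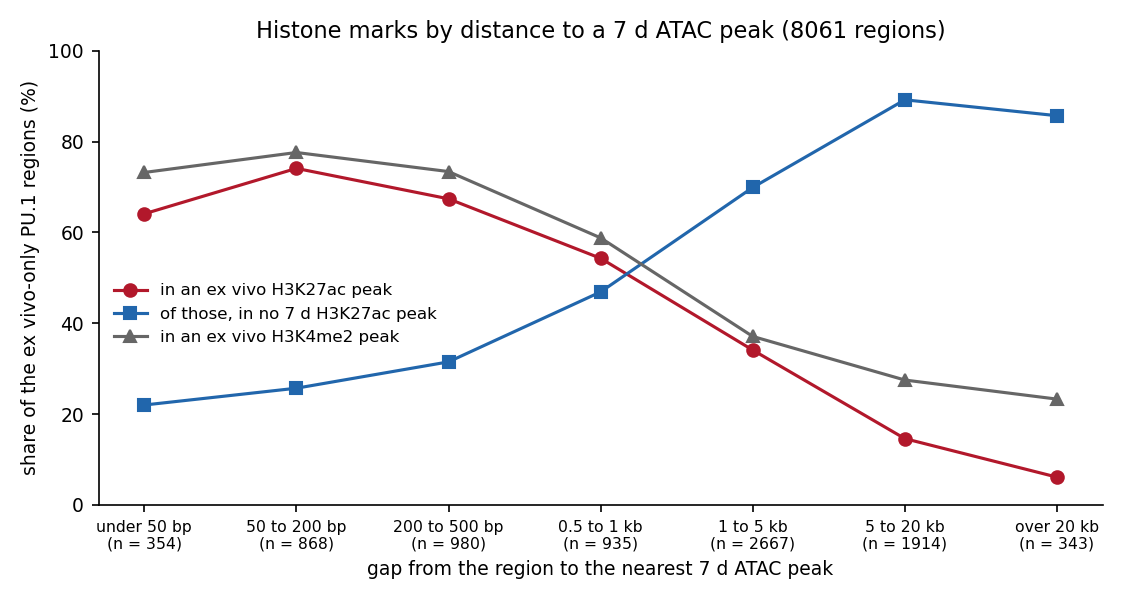
Share of the ex vivo-only PU.1-bound regions (%) in an ex vivo H3K27ac peak, of those in no 7 d H3K27ac peak, and in an ex vivo H3K4me2 peak, by the gap to the nearest 7 d ATAC peak, with the number of regions in each class. The 2 mark lines fall beyond 500 bp while the line for H3K27ac missing at 7 d climbs from 22.0% to 89.2% at 5 to 20 kb.

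The acetylated regions were spread over 3016 of the 24520 ex vivo H3K27ac peaks, and only 18 of these held 3 or more. Peaks with a region were wider, with a median of 2.46 kb against 1.78 kb over all. The share with no 7 d H3K27ac peak at all was 32.0%, and 32.2% over all ex vivo H3K27ac peaks. A 62.6-kb peak over Zfp710 (chr7:80023356-80085924) held 5 regions and 6 shared PU.1-bound peaks, and 66.7% of its length was covered by H3K27ac at 7 d. The 33.6-kb peak over Coro1c and Selplg (chr5:113811643-113845212) held 4 regions and 4 shared peaks, with 18.1% covered at 7 d. The 12.2-kb peak over Ctsb (chr14:63121762-63133947) held 3 regions and was covered at 7 d over 100% of its length.

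Each region was assigned to the nearest RefSeq gene body within 100 kb, which gave a gene to 7784 regions (96.5%) and at least 1 region to 5005 genes. Most genes had 1 region (3410), 937 had 2, 480 had 3 or 4 and 178 had 5 or more. Nearness does not show that a region acts on a gene. The expression test covered 4000 of the 5005 genes, and the 1005 others were too low. A gene kept only because it was high ex vivo could do nothing but fall, so the counts describe the genes tested and not all genes of the regions.

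Genes nearest to the regions were lower at 7 d than ex vivo somewhat more often than genes in general, and the more regions a gene had the more often it was lower. Of the 4000 genes, 1637 (40.9%) were lower and 1295 (32.4%) higher, where 35.7% of all 13840 genes tested were lower and 34.8% higher. The share lower was 36.5% with 1 region, 45.3% with 2, 51.8% with 3 or 4 and 60.7% with 5 or more, and the median log2 differences were -0.05, -0.26, -0.58 and -0.73 against -0.02 over all genes. Genes with no region but with shared PU.1-bound peaks were lower in 32.8% and had a median of 0.08. Genes with more regions were also longer and higher ex vivo: the median gene body grew from 26.6 kb to 176 kb and the median ex vivo level from 24.4 to 126 CPM between genes with 1 and with 5 or more regions. Within each quartile of genes by mean level, the share lower was larger with 2 or more regions (61.0%, 55.3%, 45.3% and 44.9%) than over all genes (42.9%, 34.9%, 31.4% and 33.7%). The part of gene length was not tested.

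The number of regions relative to the other PU.1-bound peaks of a gene gave the same order. Among genes with at least 4 PU.1-bound ATAC peaks, 37.7% of the 1116 with no region were lower at 7 d. The share was 41.4% where up to 25% of the peaks were regions, 48.8% at 25 to 50%, and 60.0% of 75 genes above 50%. The medians were 0.01, -0.13, -0.35 and -0.72.

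The shares of genes lower and higher differed with H3K27ac at the region. A gene with several regions could count in more than 1 of the groups below. Of 1121 genes with a region acetylated ex vivo only, 620 (55.3%) were lower and 246 (21.9%) higher, with a median of -0.63. Of 1381 genes with a region acetylated in both lists, 39.7% were lower and 33.5% higher, with a median of -0.10. Of 199 genes with a region acetylated at 7 d only, 26.1% were lower and 53.3% higher, with a median of 0.56. Genes whose region had no mark were lower in 41.7%. RNA and H3K27ac were measured between the same conditions that the choice of regions used, in other libraries.

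The other comparisons set the same genes in other libraries, though the 3 culture times share the ex vivo libraries and the TGFβ comparison shares the 7 d libraries. At 6 h, 1511 of the 4000 genes (37.8%) were lower and 1390 (34.8%) higher, against 36.8% and 31.2% of all genes. At 24 h, 1628 (40.7%) were lower and 1103 (27.6%) higher, against 33.1% and 29.6%. Among genes with at least 4 PU.1-bound ATAC peaks and no region, 39.2% were lower at 6 h and 41.1% at 24 h. Where 25 to 50% of these peaks were regions, the shares lower were 42.6% and 48.6%, and above 50% they were 40.0% and 49.3%. With TGFβ added to the 7 d culture, 593 of the 4000 genes (14.8%) were higher and 317 (7.92%) lower than at 7 d without it. The shares over all genes were 9.57% and 6.52%. The share higher with TGFβ was 12.3% with 1 region and 26.0% with 5 or more, and 22.1% where the region was acetylated ex vivo only. The share lower was larger as well with more regions, at 7.03% with 1 region and 12.1% with 5 or more. Among genes with at least 4 PU.1-bound ATAC peaks, 13.7% were higher and 11.4% lower with TGFβ where none was a region. These shares were 17.8% and 10.8% with up to 25% regions and 19.8% and 8.80% at 25 to 50%. Above 50%, with 75 genes only, they were 16.0% and 17.3%. Both counts with TGFβ rested on its 2 libraries. Of all libraries left out in turn, TGFβ replicate 1 gave the smallest count higher and TGFβ replicate 2 the smallest count lower. Against brain lysate, 2050 of 4204 genes tested (48.8%) were higher ex vivo and 1565 (37.2%) lower, against 39.1% and 43.5% of all genes. Of genes with 5 or more regions, 72.3% were higher ex vivo. This was not particular to genes with a region. Among genes with at least 4 PU.1-bound ATAC peaks, 54.0% were higher ex vivo where none was a region. The share was 55.6% with up to 25% regions, 55.3% at 25 to 50% and 46.1% above 50%.

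**Figure D4:**
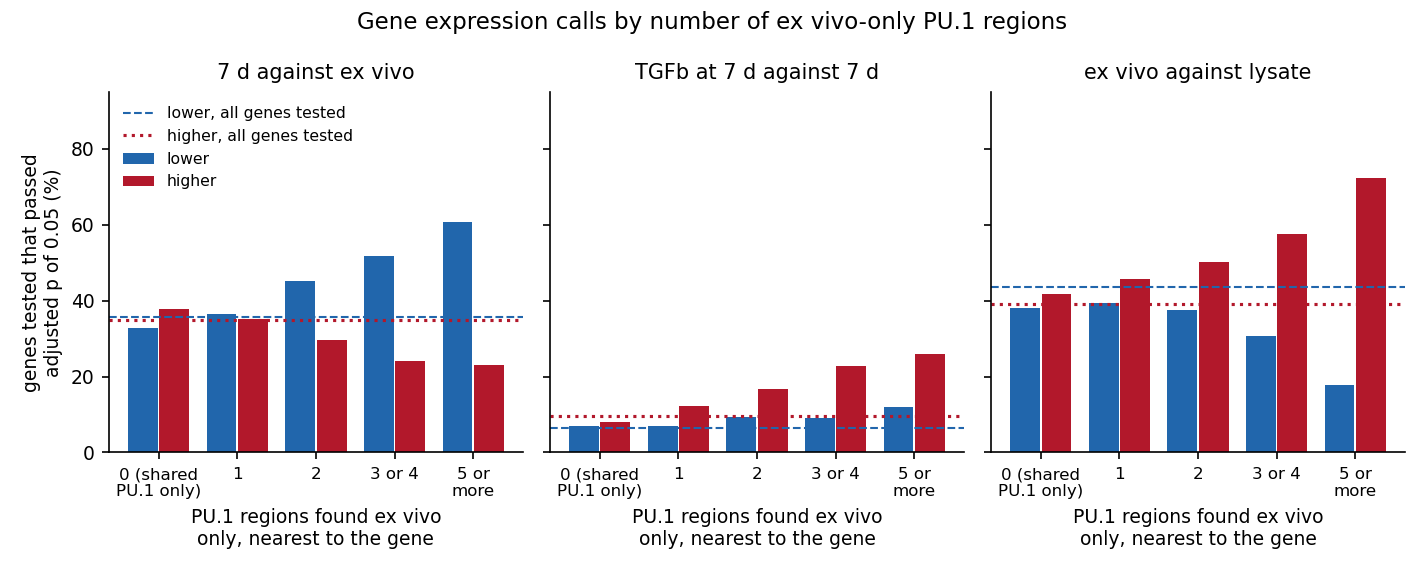
Share of tested genes (%) called lower (blue) and higher (red) by edgeR at an adjusted p of 0.05, by the number of ex vivo-only PU.1-bound regions nearest to the gene, in 3 comparisons; dashed and dotted lines are the shares lower and higher over all genes tested. The blue bars rise from 36.5% with 1 region to 60.7% with 5 or more at 7 d against ex vivo, and the red bars from 12.3% to 26.0% with TGFβ.

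Genes that define microglia in the brain had regions often and fell together in culture. Of 24 homeostatic microglia genes, 13 had a region (54.2%, against 28.9% of all genes tested). Of the PU.1-bound ATAC peaks assigned to the list, 21.7% were in the set, against 16.6% over all genes. At 7 d all 13 were lower, with a median log2 difference of -5.90, and so were 10 of the 11 without a region (median -3.92). Over all genes tested, 35.7% were lower. The difference between genes with and without a region was not tested. With TGFβ, 11 of the 13 and 8 of the 11 were higher than at 7 d (9.57% of all genes tested), with medians of 2.23 and 1.12.

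P2ry12, the purinergic receptor by which microglia sense ADP, had 2 regions in its gene body. That at chr3:59235447-59235647 lay 45 bp from a 7 d ATAC peak and was acetylated in both lists. The other, chr3:59244063-59244263, lay 348 bp from one and was acetylated ex vivo only. The ex vivo libraries had P2ry12 at 4170, 6570, 5240, 2970 and 3110 CPM and the 7 d libraries at 46.4, 37.2, 43.5, 30.4 and 39.9 CPM. The 2 groups did not overlap, and the difference was -6.80 ± 0.39 (log2, SE; adjusted p = 2.80e-10, edgeR). The TGFβ libraries had 263 and 126 CPM, above all 7 d libraries (2.30 ± 0.38, adjusted p = 4.05e-04).

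Sall1, a zinc-finger factor that maintains microglial identity, had 2 of its 6 PU.1-bound peaks in the set. The one closest to its PU.1 peak centre, chr8:89120981-89121181, lay 76.8 kb from the gene body on the upstream side, in H3K4me2 but in no H3K27ac peak, and 7.46 kb from any 7 d ATAC peak. The other, chr8:89031671-89031871, lay in the gene body, in H3K4me2 and acetylated ex vivo only, 3.10 kb from a 7 d ATAC peak. Sall1 was at 1580, 1990, 1810, 2070 and 2170 CPM ex vivo and at 175, 80.5, 108, 157 and 175 CPM at 7 d (-3.79 ± 0.25, adjusted p = 1.00e-09). With TGFβ it was at 762 and 317 CPM, again clear of the 7 d libraries and below the ex vivo ones (1.96 ± 0.28, adjusted p = 9.37e-05).

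Slco2b1, an organic anion transporter, had 5 of its 8 PU.1-bound peaks in the set, and 3 of the 5 were acetylated ex vivo only. Its levels ex vivo were 2820, 2500, 2510, 3300 and 3390 CPM and at 7 d 7.29, 24.8, 35.9, 1.43 and 5.04 CPM. The 7 d libraries spread widely among themselves, but all were far below the ex vivo libraries (-7.60 ± 0.79, adjusted p = 6.26e-07). In the TGFβ libraries it was at 425 and 154 CPM (4.28 ± 0.75, adjusted p = 9.86e-04).

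Selplg, which encodes the P-selectin ligand PSGL-1, had 3 regions, all in ex vivo H3K27ac and H3K4me2, of which 2 had no 7 d H3K27ac. It went from 3730 ± 650 CPM ex vivo (SD, n = 5) to 190 ± 9.05 CPM at 7 d (n = 5) and reached 1130 and 1160 CPM with TGFβ. Adgrg1, an adhesion G protein-coupled receptor, had 3 regions that lay 4.66 to 11.7 kb from the nearest 7 d ATAC peak, and went from 1470 ± 208 to 13.9 ± 4.37 CPM. Siglech, a microglial lectin, had 1 region 15 bp outside its gene body (chr7:55779464-55779664), acetylated ex vivo only, and went from 1330 ± 112 to 1.26 ± 0.680 CPM. The log2 differences of the 3 genes were -4.29, -6.73 and -10.03, with adjusted p of 8.64e-13, 1.26e-11 and 8.06e-12 (edgeR).

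Cx3cr1, the fractalkine receptor, had a region 3921 bp outside its body (chr9:120072218-120072418) that was acetylated ex vivo only, and Tmem119, a surface marker of microglia, had none. Cx3cr1 fell from 8980 ± 859 to 963 ± 237 CPM (-3.22 ± 0.18, adjusted p = 1.57e-10). Tmem119 fell from 2810 ± 397 to 16.7 ± 6.61 CPM (-7.40 ± 0.34, adjusted p = 1.81e-11), more than Cx3cr1. Csf1r, the receptor for IL34, also had no region and fell by 2.74 on the log2 scale.

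The largest falls at 7 d among genes with at least 2 regions and 20 CPM were in P2ry12, Slco2b1, Tspan18, Tlr12, Col6a3, Cdh23, Tlr5 and Tmem44. Tspan18, a tetraspanin, was at 53.4 to 88.6 CPM ex vivo and at most 0.299 CPM at 7 d (-8.49 ± 0.26, adjusted p = 2.17e-13). Tlr12, an endosomal receptor for profilin of parasites whose promoter is printed above, was at 68.2 to 107 CPM ex vivo and at most 0.583 CPM at 7 d (-7.99 ± 0.44, adjusted p = 2.07e-10). Both of its regions were acetylated ex vivo only. Tlr5, the flagellin receptor, also had 2 regions acetylated ex vivo only, 1 of them 0.499 kb downstream of its start (chr1:182955187-182955387), and was at 67.9 ± 8.53 CPM ex vivo and 0.442 ± 0.225 CPM at 7 d.

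Tspan18, Tlr12, Col6a3, Cdh23 and Tmem44 passed the test upward with TGFβ, by 3.93, 2.59, 3.17, 2.37 and 3.24 on the log2 scale, but stayed at 7.58 CPM or less in every TGFβ library. Tlr5 was at 0.274 and 0.248 CPM with TGFβ and within the range of the 7 d libraries (-0.78 ± 0.68, adjusted p = 0.500). Col6a3, a chain of type VI collagen, had a region in its body 57.4 kb from the nearest 7 d ATAC peak, and none of its 3 regions lay in ex vivo H3K27ac. The 3 regions of Cdh23, a cadherin, were all acetylated ex vivo only. At these low levels the rises of Col6a3 and Cdh23 with TGFβ were not called by limma on the deposited TPM plus 1 (adjusted p = 0.250 and 0.467).

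The TGFβ pathway itself had regions at 14 of its 26 genes in the count table (53.8%, against 28.9% of all genes tested). The 14 covered receptors, SMADs and inhibitors. Of the PU.1-bound ATAC peaks assigned to the list, 18.7% were in the set, against 16.6% over all genes. At 7 d, 9 of the 14 were lower and 2 higher, with a median of -0.59, where 35.7% of all genes were lower and 34.8% higher. Of the 10 tested without a region, 4 were lower and 3 higher. Tgfbr1, the type I receptor, had 2 regions in its body, both acetylated ex vivo only, and ex vivo levels of 2510, 4030, 2590, 2490 and 2280 CPM. At 7 d it was at 659, 292, 330, 320 and 558 CPM (-2.69 ± 0.25, adjusted p = 7.10e-08), and with TGFβ at 1700 and 1490 CPM (1.89 ± 0.29, adjusted p = 2.16e-04). At 6 h it was still at 2760 and 1940 CPM, overlapping the ex vivo libraries.

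Smad3, a transducer of the pathway, had 1 region 17.2 kb downstream of its start (chr9:63740653-63740853), acetylated ex vivo only, and fell from 276 ± 42.6 to 69.6 ± 10.3 CPM (-1.99 ± 0.13, adjusted p = 1.11e-09). The inhibitor Smad7 fell from 201 ± 46.1 to 49.3 ± 9.71 CPM and rose with TGFβ to 100 and 106 CPM. The co-receptor Eng fell by 1.41 at 7 d and was not called with TGFβ (0.10 ± 0.16, adjusted p = 0.753). Smad2 and Nrros, which tethers latent TGFβ, had 1 region each and were not called at 7 d (0.18 ± 0.12 and -0.07 ± 0.14), and Nrros was lower with TGFβ (-1.52 ± 0.20, adjusted p = 3.51e-05).

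Of 35 transcription factors of microglia, 25 had a region (71.4%, against 28.9% of all genes tested), and 21.3% of the PU.1-bound ATAC peaks assigned to the list were in the set, against 16.6% over all genes. Of the 25, 12 (48.0%, against 35.7% of all genes) were lower at 7 d, 2 higher and 11 not called, with a median of -0.38. Of the 10 without a region, 7 (70.0%) were lower and 1 higher, with a median of -1.30. Ikzf1 had 3 regions and fell from 522 ± 68.2 to 156 ± 17.1 CPM, rising to 317 and 268 CPM with TGFβ. Fli1, an ETS factor, had 6 of its 23 PU.1-bound peaks in the set, of which the 3 in ex vivo H3K27ac were also in 7 d H3K27ac, and its levels overlapped between the groups (-0.28 ± 0.13, adjusted p = 0.0689, but 0.0246 by DESeq2, 0.00305 by limma and 0.0207 by edgeR without ex vivo replicate 4). Mef2c, a MADS-box factor that restrains microglial activation, had 4 regions, all acetylated ex vivo and 2 of them also at 7 d, and did not differ detectably at 7 d (-0.05 ± 0.16, adjusted p = 0.787) though it was lower with TGFβ than without (-1.04 ± 0.22, adjusted p = 0.00323; 0.0850 without TGFβ replicate 2). Spi1, encoding PU.1 itself, had no region and was slightly higher at 7 d, at 331 ± 33.1 against 241 ± 49.9 CPM (0.46 ± 0.13, adjusted p = 0.00500), a call not made by limma on TPM plus 1 (adjusted p = 0.0750). PU.1 binding at 7 d was not analysed here.

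Bhlhe40, a repressor of the basic helix-loop-helix family, went the other way. It had 1 region in its body without H3K27ac (chr6:108661609-108661809) and was at 0.789 to 1.69 CPM ex vivo and 10.5 to 25.9 CPM at 7 d (4.05 ± 0.29, adjusted p = 2.75e-09). With TGFβ it was higher again, at 98.1 and 86.6 CPM (2.26 ± 0.29, adjusted p = 3.10e-05).

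Surface receptors and adhesion genes with regions were mostly lower at 7 d. The lists share genes, so their counts are not separate. P2ry12, Cx3cr1, Adgrg1, Sparc, Selplg, Siglech and Fcrls were also in the homeostatic list, and Tgfbr1 and Smad3 among others stood in 2 lists. Of the 15 receptors with a region, 11 were lower and 1 higher (median -2.54), and of 15 without, 10 were lower and 4 higher (median -1.79). Over all genes tested, 35.7% were lower and 34.8% higher. Il6ra, Il10ra and P2rx7, receptors for IL-6, IL-10 and extracellular ATP, fell by 3.3, 3.46 and 2.11 on the log2 scale, and only Il10ra of the 3 was called with TGFβ (1.29 ± 0.22, adjusted p = 5.79e-04). The differences of the other 2 with TGFβ were 0.18 ± 0.17 and 0.32 ± 0.14. Of the 16 adhesion and matrix genes with a region, 10 were lower at 7 d and 5 higher (median -1.24). With TGFβ, 9 of the 16 were higher, against 9.57% of all genes. All 6 of the list without a region were lower at 7 d (median -2.95), and 3 of them were higher with TGFβ. Sparc, a secreted matrix glycoprotein, had 1 region, acetylated ex vivo only, and went from 3050 ± 292 CPM ex vivo to 51.2 ± 18.3 CPM at 7 d and to 3200 and 1620 CPM with TGFβ. Sirpa, the receptor for CD47, had 2 regions acetylated ex vivo only and was not called at 7 d (0.17 ± 0.13, adjusted p = 0.265).

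**Figure D5:**
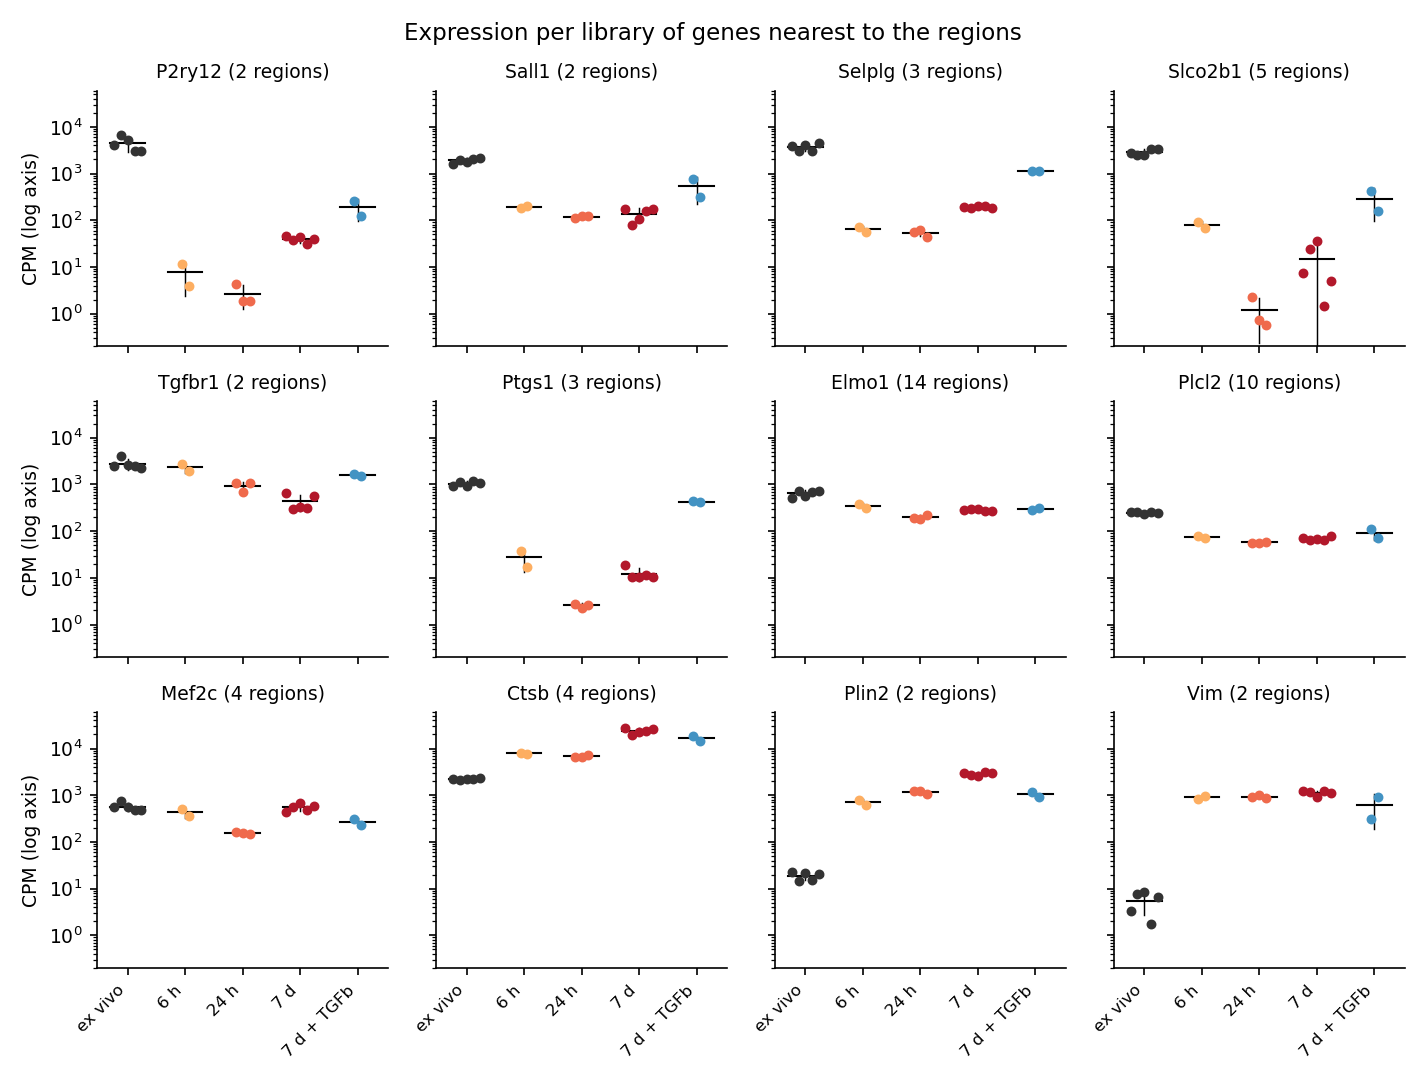
Expression (CPM, log axis) in each library of 12 genes nearest to the regions, over ex vivo, 6 h, 24 h, 7 d and 7 d with TGFβ; points are libraries, horizontal lines means and vertical lines 1 SD, drawn no lower than the axis. P2ry12, Sall1, Selplg, Slco2b1, Tgfbr1 and Ptgs1 are lower at 7 d than ex vivo and higher with TGFβ than at 7 d, Ctsb, Plin2 and Vim are higher at 7 d, and Mef2c overlaps between ex vivo and 7 d.

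Not every gene nearest to the regions was lower at 7 d. Of the 25 phagocyte, lysosome and lipid genes, 10 had a region, and at 7 d 7 of these were higher and 3 lower. All 15 without a region were higher (medians 1.84 and 7.87), against 34.8% of all genes tested. Ctsb, encoding the lysosomal protease cathepsin B, had 4 regions, all within 0.489 kb of a 7 d ATAC peak and all acetylated in both lists. Its ex vivo libraries had 2200, 2170, 2220, 2240 and 2380 CPM and its 7 d libraries 28000, 19400, 22200, 23900 and 25800 CPM (3.41 ± 0.14, adjusted p = 2.81e-12). Abcg1, a sterol exporter in the same list, had 3 regions of which 2 were acetylated ex vivo only, and fell from 304 ± 37.3 to 17.6 ± 3.90 CPM (-4.11 ± 0.18, adjusted p = 1.09e-11), with 82.4 and 105 CPM under TGFβ.

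The largest rises among genes with at least 2 regions were in Gpnmb, Vim, Plin2, Lmna and Plxnc1. Gpnmb, a glycoprotein of lipid-laden phagocytes, went from 1.43 ± 1.23 CPM ex vivo to 2880 ± 718 CPM at 7 d (10.96 ± 0.56, adjusted p = 1.24e-10), and both of the PU.1-bound ex vivo ATAC peaks assigned to it were in the set. Neither lay in ex vivo H3K27ac, and 1 lay in 7 d H3K27ac. The same held for both PU.1-bound peaks of Vim, an intermediate filament gene, except that both lay in 7 d H3K27ac, and Vim went from 5.56 ± 2.89 to 1120 ± 133 CPM (7.64 ± 0.43, adjusted p = 2.56e-10). The 2 regions of Plin2, which coats lipid droplets, were acetylated in both lists, and Plin2 went from 19.0 ± 3.91 to 2870 ± 232 CPM (7.24 ± 0.19, adjusted p = 1.27e-13). With TGFβ, Plin2 and the lamin gene Lmna were lower than at 7 d (-1.47 ± 0.20 and -1.75 ± 0.25, adjusted p = 7.29e-05 and 9.21e-05). Gpnmb and Vim were not called (-1.39 ± 0.51, adjusted p = 0.0779, and -0.85 ± 0.44, adjusted p = 0.214). Gpnmb was called lower without ex vivo replicate 2 (adjusted p = 0.0334, edgeR) and by limma on TPM plus 1 (0.00404), and Vim without TGFβ replicate 2 (0.0472).

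Inflammatory genes with regions were higher early and mixed later. Of 12, 10 were higher at 6 h and 0 lower by edgeR at an adjusted p of 0.05, against 10 higher and 1 lower of 12 without a region. At 7 d 3 of the 12 with a region were higher and 5 lower. Of all genes tested, 31.2% were higher at 6 h, and 34.8% were higher and 35.7% lower at 7 d. Il1a, a cytokine of the IL-1 family, had 2 regions acetylated ex vivo only. It was at 279, 108, 90.1, 291 and 98.5 CPM ex vivo, at 969 and 756 CPM at 6 h, and at 1.27 to 2.77 CPM at 7 d (-6.53 ± 0.42, adjusted p = 1.72e-09). Icam1, an integrin ligand, had 1 region acetylated in both lists, rose above the ex vivo libraries at 6 h to 416 and 396 CPM, fell to 37.0 ± 7.86 CPM at 7 d from 168 ± 24.8 ex vivo, and was at 151 and 184 CPM with TGFβ (2.18 ± 0.18 against 7 d, adjusted p = 2.81e-07). Cd14, a co-receptor for lipopolysaccharide, had 1 region acetylated ex vivo only and was higher at 7 d, at 1100 ± 128 against 295 ± 19.0 CPM.

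Of 17 cell cycle genes, 5 had a region (29.4%, against 28.9% of all genes tested). These 5 were all higher at 7 d, as were 11 of the 12 without a region, against 34.8% of all genes tested. The 7 d libraries spread widely, with Aurkb, a mitotic kinase, at 4.23, 22.4, 9.44, 9.11 and 0.811 CPM, and overlapped the ex vivo range of 0.928 to 1.83 CPM.

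Of the 10 genes with the most regions, 9 had bodies of 180 to 688 kb, against a median of 15.1 kb over all genes tested, and Efnb1 was the exception. Elmo1, an adaptor of engulfment, had 14 of its 47 PU.1-bound peaks in the set over a body of 518 kb. Of the 14, 10 lay in ex vivo H3K27ac and 7 of those had none at 7 d. Elmo1 was at 501, 728, 573, 684 and 735 CPM ex vivo and 277, 295, 291, 270 and 269 CPM at 7 d, with no overlap (-1.20 ± 0.12, adjusted p = 1.15e-07), and was not called with TGFβ (0.07 ± 0.15, adjusted p = 0.812). Plcl2 had 10 regions, 4 acetylated ex vivo only, and fell from 249 ± 10.1 to 68.5 ± 5.52 CPM (-1.86 ± 0.11, adjusted p = 2.29e-10). Efnb1, an ephrin ligand, had 10 of its 16 PU.1-bound peaks in the set, the highest proportion among these 10 genes, although only 2 lay in its body, and it fell from 48.8 ± 7.03 to 7.53 ± 1.30 CPM (-2.69 ± 0.16, adjusted p = 2.91e-10).

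Magi1, Hivep3 and Snx29, with 11, 10 and 10 regions, also fell at 7 d, by 1.11, 1.25 and 1.34 on the log2 scale. Hivep3, a zinc-finger factor, did so after a rise: it was at 95.4 to 166 CPM ex vivo, 817 and 792 CPM at 6 h and 50.4 to 56.1 CPM at 7 d. Gse1 was called lower at 7 d although its libraries overlapped (-0.37 ± 0.13, adjusted p = 0.0192), and the call was lost without 7 d replicate 3, ex vivo replicate 4 or ex vivo replicate 5 (adjusted p of 0.0518, 0.0583 and 0.0530). Ptprm and Etv6, with 11 and 10 regions, were not called (-0.20 ± 0.17 and -0.28 ± 0.13, adjusted p = 0.302 and 0.0617 by edgeR), though both were by limma on TPM plus 1 (adjusted p = 0.0369 and 0.00264) and Etv6 by DESeq2 (0.0251). Without 24 h replicate 3, 7 d replicate 1, 7 d replicate 5 or ex vivo replicate 3, Etv6 was called by edgeR too (adjusted p of 0.0456, 0.0471, 0.0417 and 0.0237). Asap1, with 9, was higher by edgeR (0.45 ± 0.14, adjusted p = 0.00926) and not called by limma (adjusted p = 0.175). The 11 regions of Ptprm differed from those of Elmo1 in that 1 lay in ex vivo H3K27ac, and the nearest 7 d ATAC peak was 1.85 to 21.2 kb away.

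With TGFβ, the largest rises among genes with at least 2 regions were in Chst1, Ptgs1, Agap2 and Pde4d. Ptgs1, encoding cyclooxygenase 1, had 3 regions and was at 945, 1100, 912, 1200 and 1050 CPM ex vivo, 19.0, 10.3, 10.2, 11.7 and 10.4 CPM at 7 d and 437 and 421 CPM with TGFβ. The TGFβ libraries lay between the others (5.12 ± 0.25 against 7 d, adjusted p = 1.10e-09). Chst1, a sulfotransferase, was at 20.3 to 62.9 CPM ex vivo, 0.515 to 3.98 CPM at 7 d and 168 and 163 CPM with TGFβ, above the ex vivo libraries, and its 2 regions lay in no mark list. Agap2 had 2 regions, both acetylated ex vivo only and 4.68 to 5.70 kb from a 7 d ATAC peak, and was 4.82 ± 0.24 higher (adjusted p = 1.10e-09).

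The largest falls with TGFβ were in Mrc1, Cd93, Rgl1 and Ccl9, of which Cd93 was not called without TGFβ replicate 1 (adjusted p = 0.107, edgeR) and Ccl9 not without TGFβ replicate 2 (0.0558). Rgl1, a Ral exchange factor, had 3 regions, was at 60.4 to 139 CPM at 7 d and at 9.91 and 8.92 CPM with TGFβ (-3.46 ± 0.31, adjusted p = 5.63e-07), and did not differ detectably between 7 d and ex vivo (-0.10 ± 0.19, adjusted p = 0.646). Mrc1, a mannose receptor that also marks border macrophages, was at 46.5 to 83.6 CPM at 7 d and 4.57 and 4.21 CPM with TGFβ (-3.79 ± 0.73, adjusted p = 0.00200). The summed level of the 5 border macrophage markers, Mrc1 among them, was 54.0 to 117 CPM at 7 d and 6.45 to 6.61 CPM with TGFβ, with Lyve1 at 0 in the latter. Its part in these falls was not tested. Ex vivo, Mrc1 ranged from 6.95 to 68.0 CPM, and the chemokine gene Ccl9 from 25.8 to 135 CPM.

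At the promoters printed above, 2 of the 6 genes were lower at 7 d and 4 higher. Besides Tlr12, the lower gene was Amigo1, an adhesion molecule, at 14.2 to 29.8 CPM ex vivo and 5.85 to 9.53 CPM at 7 d. Itgb1, the integrin beta 1 chain, was at 268 to 390 CPM ex vivo and 698 to 915 CPM at 7 d, with 549 and 619 CPM under TGFβ. Ube2a, a ubiquitin-conjugating enzyme, was at 14.9 to 39.6 and 49.9 to 55.7 CPM, Tmem242 at 4.73 to 12.1 and 20.8 to 38.8 CPM, and Slc35e4 at 3.94 to 7.88 and 24.1 to 49.4 CPM. The regions at the 4 genes that were higher all lay in a 7 d H3K27ac peak, and those of Tlr12 and Amigo1 did not. These 6 were chosen for not overlapping between the groups, so their differences carry no test here.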

How the data were processed

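The regions, gene lists and named genes were chosen with earlier results of these data known, so no count over them is independent evidence. Per the file headers, the authors pooled the libraries of a condition and called peaks with HOMER, with input for ChIP and without for ATAC. The deposited peak lists hold only coordinates (mm10, per the submitters' processing notes, which also name STAR, Bowtie2, bedtools and R 3.3.1). The deposited gene counts are whole read counts; the deposited TPM values served as an alternative. The sources used here state no aligner settings and no strand, so overlapping genes cannot be told apart.

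Overlap meant 1 bp or more. Counts of 17 microglial libraries (13338672 to 28841472 counts each) were fitted with edgeR 4.0.16 (R 4.3.3; TMM, filterByExpr, quasi-likelihood F test, Benjamini-Hochberg over all 13840 genes, threshold 0.05). Lysate (11584561 to 25655815 counts) and ex vivo libraries were fitted separately (15335 genes). The fit was tested on simulated data. CPM used TMM library sizes, and summed marker levels plain library totals. Gene bodies, starts and promoter sequences came from RefSeq (GRCm38.p6), which matched 24410 of 24537 symbols; the table used holds no starts on chromosome 18. Named genes were 10 fixed microglial genes, the 10 with the most regions, the largest falls and rises among genes with 2 or more regions, at least 20 CPM and groups that do not overlap, and from each list up to 4 called and 2 not called. The promoter genes were added after values had been seen. Alternatives included DESeq2, RLE factors, limma on TPM, other overlap and assignment rules, and leaving out each library.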

Additional observations from a re-analysis of the deposited data

Results flagged for a closer look

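For the genes named here, 227 groups of 4 or 5 libraries were examined with Dixon's test at 95%, which singles out about 1 group in 20 by chance, and 9 libraries stood apart from the others of their group. Ex vivo, Tgfbr1 was at 4030 CPM in replicate 2 and at 2280 to 2590 CPM in the other 4, and Smad2 was at 85.4 CPM in the same library against 68.7 to 71.6 CPM. Tmem44 was at 101 CPM in ex vivo replicate 1 and at 63.6 to 73.5 CPM in the others. Ptgs1 was at 19.0 CPM in 7 d replicate 1 and at 10.2 to 11.7 CPM in the others. In brain lysate, replicate 3 was high for Snx29 (8.76 CPM against 5.71 to 6.10), Col6a3 (5.89 against 2.47 to 2.68) and Gpnmb (4.31 against 2.05 to 2.37). Mef2c was at 841 CPM in lysate replicate 4 against 563 to 584 CPM, and Chst1 at 304 CPM in lysate replicate 2 against 273 to 276 CPM.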

How the results depend on the processing

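The shares of regions in marks moved with the overlap rules. Against 40.3% in ex vivo H3K27ac, 48.1% of those in no 7 d H3K27ac and 47.1% in H3K4me2, they were 44.0%, 42.5% and 50.3% where a 7 d ATAC peak had to cover 50% of the ex vivo peak to count, and 29.3%, 66.4% and 36.6% where none could lie within 500 bp. They were 37.5%, 51.1% and 41.7% where a region had to lie wholly inside the mark peak, 42.7%, 42.2% and 52.5% where a mark within 500 bp counted, and 35.7%, 50.2% and 36.4% with mark peaks of at least 1 kb. In the upper part of the ATAC list, up to its midpoint, an alternative chosen after seeing the data, they were 66.1%, 37.9% and 64.0%. The cause of these shifts was not tested.

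Among the 1381 tested genes with 2 or more regions, 374 (27.1%) were higher and 680 (49.2%) lower at 7 d. The counts were 462 (33.5%) and 600 (43.4%) at 6 h, 341 (24.7%) and 691 (50.0%) at 24 h, and 272 (19.7%) and 133 (9.63%) with TGFβ. Of 1410 tested against lysate, 777 (55.1%) were higher ex vivo and 466 (33.0%) lower. Over all genes tested, the shares were 34.8% and 35.7%, 31.2% and 36.8%, 29.6% and 33.1%, 9.57% and 6.52%, and 39.1% and 43.5% in the same order. With regions up to the midpoint of the list, the counts were 558 and 708, 609 and 670, 499 and 710, 273 and 140, and 952 and 529. Both settings test fewer genes than the main one. The number tested at the midpoint setting is not given here, so its counts cannot be set against these shares. The count lower with TGFβ was 510 by limma on TPM plus 0.1 or plus 1, where 11.4% and 11.3% of all genes were lower, against 317 by edgeR, and 143 to 372 leaving out each library in turn. DESeq2, RLE factors, no filter on low counts, and the other gene assignments kept the counts within 1.5 times.

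The numbers shared by replicates did not clearly pair the cultured with the ex vivo samples. Between 7 d and ex vivo, the correlations of same-numbered libraries were -0.0326 to 0.202, and 2 of 5 correlated best with their own number. At 6 h and 24 h none did. With TGFβ against 7 d, the 2 pairs each correlated best with their own number (0.113 and 0.375). Whether those libraries were paired cannot be told from 2 pairs, and the main fit used no pairing. With a replicate block, 1291 genes were higher and 1639 lower at 7 d, 1344 and 1461 at 6 h, 1098 and 1585 at 24 h, 555 and 291 with TGFβ, and 1975 and 1513 against lysate. Of the calls at 7 d, 2637 of 2932 were made the same way whichever library was left out, and with TGFβ 381 of 910. A peak absent from a list pooled from 2 libraries may lie below its threshold, and no chromatin share here has a replicate.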
